A study of Mus musculus with 4 samples.

Results

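The clustered protocadherins were examined in RNA-seq counts of 4 libraries of C3H10T1/2, a mouse line labelled as mesenchymal stem cells. They were taken as every gene on chromosome 18 whose GENCODE M21 symbol places it in the alpha, beta or gamma cluster, which gave 58 of the 54532 genes counted. The alpha cluster held 14 of them (2 of C type), the beta cluster 22, and the gamma cluster 22 (12 of type A, 7 of type B and 3 of type C). Clustered protocadherins are cadherin-like surface proteins that pair with like molecules on a neighbouring cell, and in the brain the mix of isoforms gives a neuron a surface identity. In the alpha and gamma clusters each gene has its own promoter and first exon, which is spliced to constant exons shared by the whole cluster, while each beta gene is complete in 1 large coding exon. Most of these promoters bind CTCF, and methylation of their DNA, laid down in the embryo largely by Dnmt3b, is known to limit which isoforms a cell uses.

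One library came from unedited cells (WT). A second came from cells in which CRISPR had altered the acceptor site of Prdx1 intron 5 (PRDX1MT), whose genotype field reads PRDX1-KO. The other libraries came from 2 clones with Dnmt3a and Dnmt3b targeted together (DKO, clones 1 and 5). All were grown in the same serum medium, and the series design text gives the silencing of Mmachc as the question behind them. WT and PRDX1MT had 1 library each, and each DKO library was 1 clone, so clone and genotype cannot be told apart for a single library. Whether Prdx1 was edited in the DKO clones too is not stated in the labels. Counts per library ran from 27570136 to 37685798, so that 3 counts, about what a count of 0 allows, were worth 0.0729 to 0.121 CPM, the usual scaling of counts to the library's size, here with TMM factors of 0.903 to 1.09. Dnmt3a had 43.7, 80.9, 31.3 and 25.9 CPM, and Dnmt3b 3.28, 3.74, 2.83 and 2.03 CPM, in WT, PRDX1MT, DKO clone 1 and DKO clone 5. Neither passed the test in DKO against WT, and counts over the whole gene cannot show whether the edited exons were lost. All 12 mesenchymal markers looked for had reads in every library, and their summed level was 25141 to 44404 CPM. Their median log2 ratio in DKO against WT was 0.02, and 1 of the 12 passed the test, against 0.468% of all genes tested. One of them, Thy1, a surface marker of such cells, fell in DKO against WT (log2 ratio -4.76, SE 0.63, adjusted p = 0.0321 by edgeR; the call was lost with a filter of 1 CPM in 2 libraries, under which no gene was called), and it was at 0.884 CPM in PRDX1MT, also far under the 29.0 CPM of WT.

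What the counts can hold differed between the clusters. How reads were counted is not stated, and the values look as though most reads touching more than 1 annotated gene, on either strand, had been dropped. Of 14 other annotated genes that lie over exons of the protocadherins, 6 lay wholly over them, and all 6 had 0 reads in every library. Genes without expression would be at 0 too. Pcdhga10 had no exon base free of another gene, because its own first exon lies under Gm26672 on the other strand, and its reads were 0, 0, 1 and 0. If so, the shared constant exons of the alpha and gamma clusters gave few or no reads, and their members were read mainly from their own exons. Of 5206 to 7535 annotated exon bases, alpha members kept 404 to 3028 that no other gene covers, here called countable bases. Gamma members kept 0 to 4614 of 4615 to 7627. For 19 of the 22 beta members every exon base was countable. Members also resemble each other in sequence. The share of a member's 50-base words found in no other member was 88.0% to 100% in the beta cluster, 36.1% to 56.3% in the alpha cluster and 34.7% to 73.1% in the gamma cluster, where the constant exons are part of what is shared. How reads with several equally good positions were treated is not given in the sources used here, so values of single members carry that uncertainty.

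The alpha cluster was close to silent. Its 14 genes together had 11, 5, 4 and 1 reads in WT, PRDX1MT, clone 1 and clone 5, which is 0.267 CPM (95% Poisson interval 0.133 to 0.478), 0.201 CPM (0.0653 to 0.469), 0.112 CPM (0.0306 to 0.287) and 0.0363 CPM (0.000919 to 0.202). The most that any alpha gene held was 5 reads, for Pcdha5 in WT. Between 10 and 13 of the 14 genes were at 0 reads in a library, and none had enough reads to be tested. Both C-type genes, which in neurons are switched on from their own promoters without the random choice of the others, shared this: Pcdhac1 had 0 reads in every library and Pcdhac2 had 3, 0, 0 and 1. If reads of the constant exons were dropped, these values say how few reads came from the alpha first exons, with no measure of the whole transcripts.

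Beta and gamma genes were expressed in every library, and they set the 4 libraries apart in different ways. Summed beta level was 178 CPM in WT (174 to 182), 191 CPM in PRDX1MT (185 to 196), 258 CPM for clone 1 (253 to 263) and 76.0 CPM for clone 5 (72.8 to 79.4). Summed gamma level was 249 CPM (244 to 254), 271 (265 to 278), 514 (506 to 521) and 269 (263 to 275) in the same order. DKO clone 5 thus had 2.34-fold less beta RNA than WT (2.23 to 2.46), and DKO clone 1 had 2.06-fold more gamma RNA than WT (2.02 to 2.12). PRDX1MT stayed near WT in both sums: the ratios were 1.07 and 1.09 with TMM scaling and 0.886 and 0.901 with total counts, so their direction depended on the scaling. The gamma ratio of clone 5 to WT did too, at 1.08 and 0.981. As a group the DKO clones had 167 ± 129 CPM of beta (SD, n = 2) and 391 ± 173 CPM of gamma, with the beta sums of the clones on opposite sides of WT. In bulk RNA, fewer cells using a gene and less RNA in each cell cannot be told apart. Intervals of single libraries cover counting error only.

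**Figure D1:**
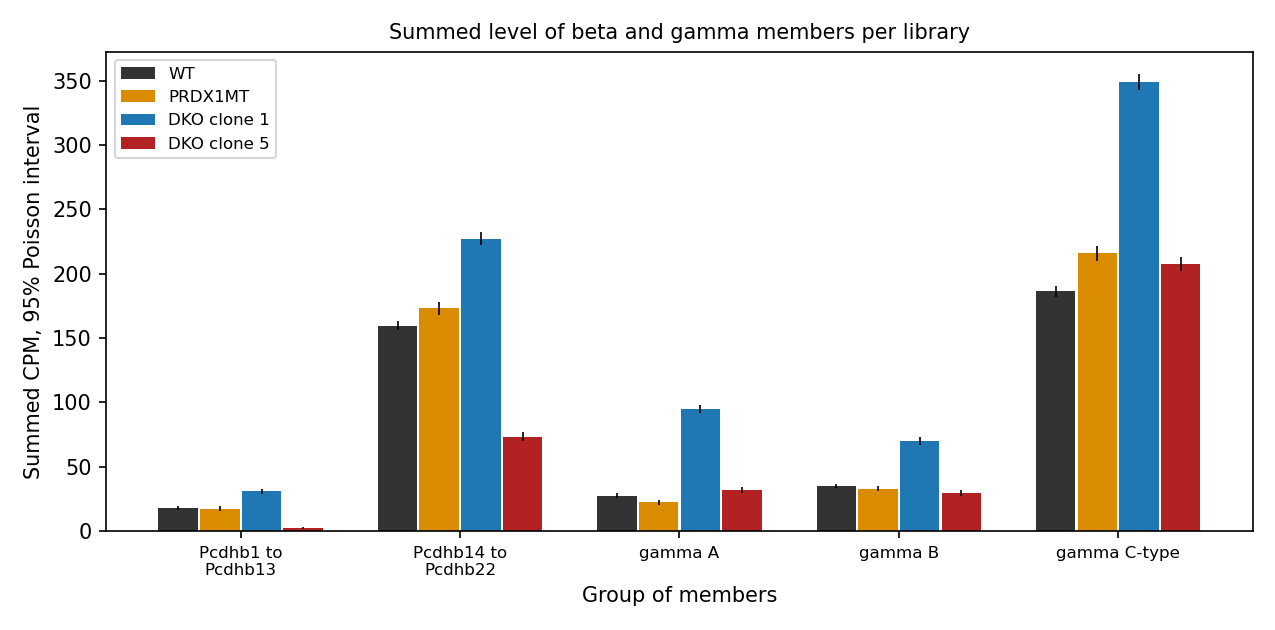
Summed level in CPM of 5 groups of beta and gamma genes in each library, as bars from 0 with 95% Poisson intervals; the split of the beta cluster was chosen after the values were seen. DKO clone 5 is lowest in both beta groups (2.54 and 73.5 CPM), and DKO clone 1 is highest in all 5 groups.

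In the beta cluster most of the RNA came from a few of its genes. Pcdhb16, whose protein is known from synapses of the brain and retina, was the leading beta gene in every library, with 2507, 1504, 3421 and 755 reads in WT, PRDX1MT, clone 1 and clone 5. Pcdhb17 followed with 1145, 714, 1600 and 455 reads, and Pcdhb14 with 853, 678, 1016 and 187 reads. These 3 genes held 61.6%, 61.0%, 65.6% and 66.7% of all beta reads, so the leading members were shared by libraries whose totals differed. Per kilobase of countable exon, Pcdhb16 stood at 11.7 CPM in WT, Pcdhb17 at 5.97 and Pcdhb15 at 2.86, against a median of 0.891 over the cluster. The number of beta genes with at least 10 reads was 21, 18, 18 and 11 in the same order. Pcdhb1, the first gene of the cluster, had 0 reads in all libraries.

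DKO clone 5 had the lowest level of the 4 libraries for 18 of the 19 beta genes tested, against 24.7% of all genes tested. A single library has no replicate, so a gene was taken as higher or lower only if its log2 ratio was at least 1 in size, the pair held at least 100 reads and the 95% interval of the counting excluded no change. By this size rule 8 of the 11 beta genes with enough reads were lower in clone 5 than in WT and none was higher, where 8.58% of all genes with enough reads were lower and 5.69% higher. Pcdhb5 was 6.80-fold lower (3.76 to 13.5), with 122, 92, 186 and 12 reads in WT, PRDX1MT, clone 1 and clone 5. Pcdhb11 was 6.24-fold lower (4.22 to 9.57), with 261, 106, 412 and 28 reads. In both genes clone 5 lay far under the other libraries, while clone 1 was the highest. Pcdhb18 was 3.12-fold lower (2.48 to 3.96), and its reads of 419, 216, 392 and 90 again set clone 5 alone apart. Pcdhb16 itself was 2.22-fold lower (2.05 to 2.41), and Pcdhb14 had a log2 ratio of -1.60. Pcdhb17, at 1.68-fold lower (1.51 to 1.88), and Pcdhb22, the last gene of the cluster, at 1.30-fold lower (1.07 to 1.58), did not pass the size rule.

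The cluster was also summed in parts as a description. Genes Pcdhb1 to Pcdhb13, a split chosen after the values were seen, summed to 18.1 CPM in WT, 17.6 in PRDX1MT, 31.0 in clone 1 and 2.54 in clone 5, which is 7.10-fold lower in clone 5 than in WT (5.55 to 9.21). Genes Pcdhb14 to Pcdhb22 summed to 160, 173, 227 and 73.5 CPM, 2.17-fold lower (2.07 to 2.29). Both parts were lowest in clone 5, and since the split was drawn from these values the difference between their ratios is no test. In clone 5 no gene of the first set had more than 28 reads, and the least-read gene of the second had 60.

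DKO clone 1 did not share this. Of the 14 beta genes with enough reads, 1 was higher in clone 1 than in WT and none was lower, against 8.4% higher and 7.56% lower over all genes. That gene was Pcdhb9, with 70 reads in WT, 35 in PRDX1MT, 258 in clone 1 and 7 in clone 5, and it was 4.25-fold higher in clone 1 (3.25 to 5.62). The other 13 lay between log2 ratios of -0.32 and 0.86, and for 11 of the 14 the ratio was above 0. The median log2 ratio over all genes with enough reads was -0.02.

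**Figure D2:**
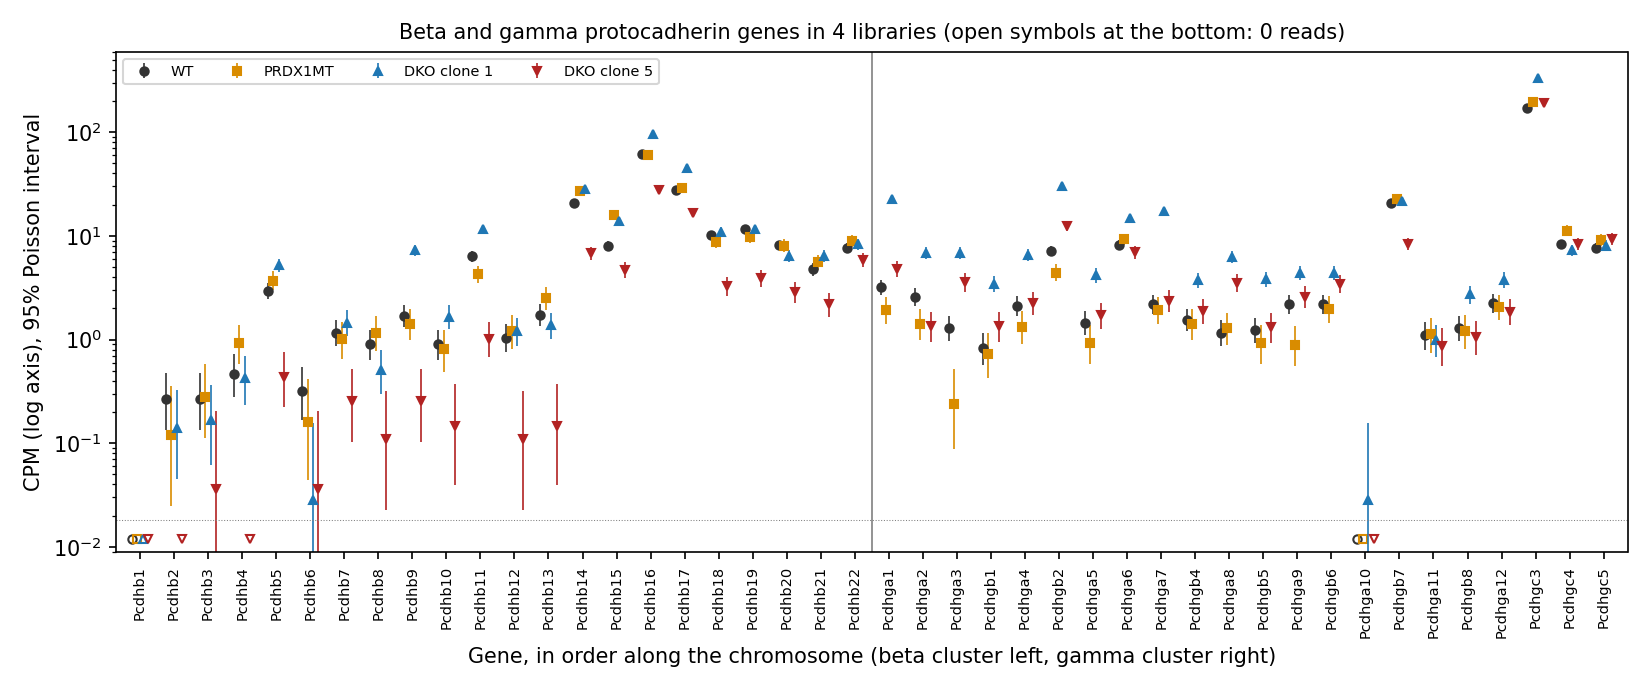
Level in CPM (log axis) of each beta and gamma gene in the 4 libraries, in the order of the genes along chromosome 18, with 95% Poisson intervals and open symbols for 0 reads. DKO clone 5 lies lowest for nearly all beta genes, DKO clone 1 highest for most gamma A and B genes, and Pcdhgc3 above every other gene.

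The gamma cluster was led by 1 gene. Pcdhgc3, a C-type isoform found widely outside neurons whose tail binds Axin1 of the Wnt pathway, had 7011, 4863, 11889 and 5231 reads in WT, PRDX1MT, clone 1 and clone 5, which is 170, 195, 333 and 190 CPM. That was 68.4% of all gamma reads in WT (exact binomial interval 67.5 to 69.3), 72.0% in PRDX1MT, 64.9% in clone 1 and 70.6% in clone 5. Per kilobase of countable exon it stood at 93.6 CPM in WT, against 11.3 for Pcdhgb7, the next gene, and a median of 0.854 over the cluster. Were all its exon bases counted, the same reads would give 31.0 CPM per kilobase. Pcdhgc3 lay at 37806364 to 37841873 on the plus strand (GRCm38/mm10), and 1821 of its 5499 exon bases were countable. In clone 1 it was 1.96-fold higher than in WT (1.90 to 2.02), just under the size rule, and in clone 5 it was 1.12-fold higher (1.08 to 1.16).

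The other C-type gamma genes were far below Pcdhgc3 and differed little between the libraries. Pcdhgc4, the isoform that neurons need to survive, had 341, 279, 260 and 230 reads in WT, PRDX1MT, clone 1 and clone 5, or 8.29, 11.2, 7.29 and 8.35 CPM. Pcdhgc5, which binds a GABA receptor subunit, had 313, 229, 287 and 257 reads, or 7.61, 9.20, 8.05 and 9.33 CPM. The ratio of clone 1 to WT was 0.880 for Pcdhgc4 (0.746 to 1.04) and 1.06 for Pcdhgc5 (0.898 to 1.25), and that of clone 5 to WT was 1.01 (0.849 to 1.20) and 1.23 (1.04 to 1.45). None of the 3 C-type gamma genes passed the size rule in any pair of libraries compared.

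The gamma A and B genes were the members with the most RNA in clone 1 relative to WT. Type A genes summed to 27.7 CPM in WT (26.1 to 29.3), 22.3 in PRDX1MT (20.5 to 24.3), 95.1 in clone 1 (92.0 to 98.4) and 31.8 in clone 5 (29.7 to 34.0), 3.44-fold higher in clone 1 than in WT (3.21 to 3.68). Type B genes summed to 35.0, 33.1, 70.0 and 29.6 CPM, 2.00-fold higher in clone 1 (1.88 to 2.14). Clone 1 had the highest level in 16 of the 18 A and B genes tested, against 24.1% of all genes tested. By the size rule 12 of the 17 with enough reads were higher in clone 1 than in WT and none was lower, against the 8.4% and 7.56% of all genes given above.

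The largest ratios in clone 1 belonged to type A genes. Pcdhga7 had 90, 48, 626 and 65 reads in WT, PRDX1MT, clone 1 and clone 5, and it was 8.03-fold higher in clone 1 than in WT (6.43 to 10.1). Pcdhga1, the first gene of the cluster, had 131, 48, 815 and 132 reads and was 7.18-fold higher (5.96 to 8.70). In both, clone 1 stood far above the other libraries, which lay between 1.93 and 2.36 CPM for Pcdhga7 and between 1.93 and 4.79 CPM for Pcdhga1. Pcdhga8 had 48, 32, 224 and 97 reads, 5.38 times the WT level in clone 1 (3.93 to 7.52) and 3.02 times in clone 5 (2.12 to 4.36). Pcdhga3 had 53, 6, 245 and 98 reads, 5.33 times the WT level in clone 1 (3.95 to 7.32) and 2.76 times in clone 5 (1.96 to 3.94). In both genes each clone lay above WT and PRDX1MT, and both ratios of a gene share the 1 WT library. Pcdhgb2, named after its values were seen, carried the most type B reads in clone 1, with 296, 110, 1084 and 339.

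In Pcdhgb7 and Pcdhga11 clone 1 was not the highest library, unlike the other A and B genes tested. Pcdhga11 was low in every library, with 45, 28, 35 and 24 reads. Pcdhgb7 was the second gamma gene by reads in WT, with 851 reads, and had 559 in PRDX1MT, 769 in clone 1 and 228 in clone 5. Its level in clone 1 was 1.04 times that in WT (0.945 to 1.15). In clone 5 it was 2.50-fold lower than in WT (2.16 to 2.90), and it was the single gamma gene lower there by the size rule, among 17 with enough reads. Both clones lay above both WT and PRDX1MT in 12 of the 18 A and B genes tested, against 12.6% of all genes tested. This order takes no account of the size of a difference. By the size rule 2 of the 14 A and B genes with enough reads were higher in clone 5 than in WT. The rule found 1 lower, against 5.69% higher and 8.58% lower over all genes. Summed A and B level in clone 5 was 0.980 times that in WT (0.921 to 1.04).

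**Figure D3:**
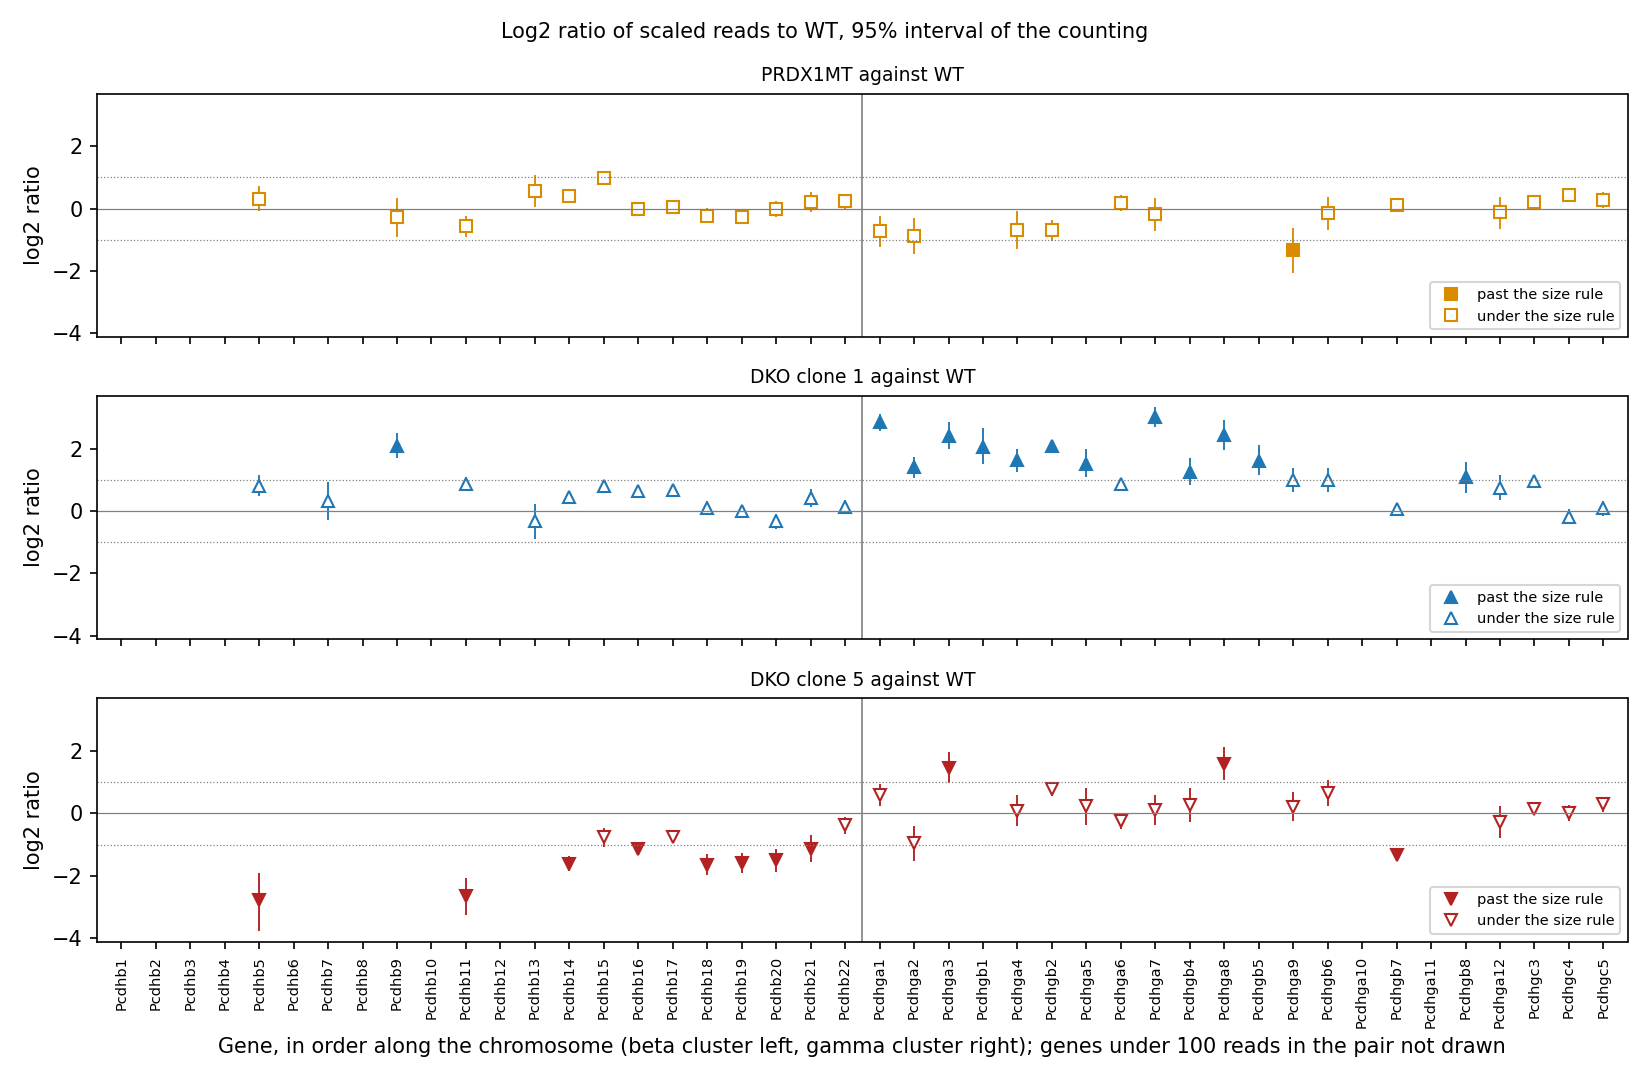
Log2 ratio to WT of each beta and gamma gene with at least 100 reads in the pair, for PRDX1MT, DKO clone 1 and DKO clone 5, with 95% intervals of the counting and dotted lines at 1 and -1. Filled symbols pass the size rule: 1 lower gene in PRDX1MT, 13 higher for clone 1, 2 higher for clone 5 and 9 lower for clone 5.

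In PRDX1MT few members differed from WT by the size rule. Of 26 members with enough reads none was higher and 1 was lower, against 7.25% higher and 7.57% lower over all genes. The median size of the log2 ratio was 0.26 over these members and 0.40 over all genes. The gamma A genes differed more: over the 7 with enough reads the median log2 ratio was -0.65, and 6 of the 7 were below 0. Over all genes with enough reads the median was -0.04. The 1 lower gene was Pcdhga9, with 91 reads in WT, 22 in PRDX1MT, 156 in clone 1 and 71 in clone 5, 2.50-fold lower in PRDX1MT (1.56 to 4.19). Pcdhga3 had a larger fall, from 53 reads in WT to 6 in PRDX1MT, 5.34-fold lower (2.30 to 15.2). Its pair held too few reads for the rule. At a minimum of 20 reads 2 members were lower and 0 higher, and the share of all genes at that minimum was not worked out. PRDX1MT had the lowest level of the 4 libraries in 11 of the 18 gamma A and B genes tested, against 25.0% of all genes.

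The 2 DKO clones were then set against each other, which asks how far lines of 1 genotype label differ. Of 32 members with enough reads, 22 were lower in clone 5 than in clone 1 and none was higher, against 10.7% lower and 7.63% higher over all genes. The median size of the log2 ratio was 1.35 over the members and 0.43 over all genes. Lower genes were 11 of 12 in the beta cluster and 11 of 17 among gamma A and B, with none among the 3 C-type gamma genes. Pcdhb9 was 28.5-fold lower (13.6 to 71.5), Pcdhb5 was 12.0-fold lower (6.69 to 23.6) and Pcdhb11 was 11.4-fold lower (7.74 to 17.3). Among gamma genes Pcdhga7 was 7.44-fold lower (5.75 to 9.75) and Pcdhga1 was 4.77-fold lower (3.96 to 5.77). Pcdhga2, with 106, 35, 243 and 37 reads in WT, PRDX1MT, clone 1 and clone 5, was 5.07-fold lower (3.58 to 7.37). Of the 13 members higher in clone 1 than in WT, 12 were gamma A or B genes, and of the 9 lower in clone 5 than in WT, 8 were beta genes.

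**Figure D4:**
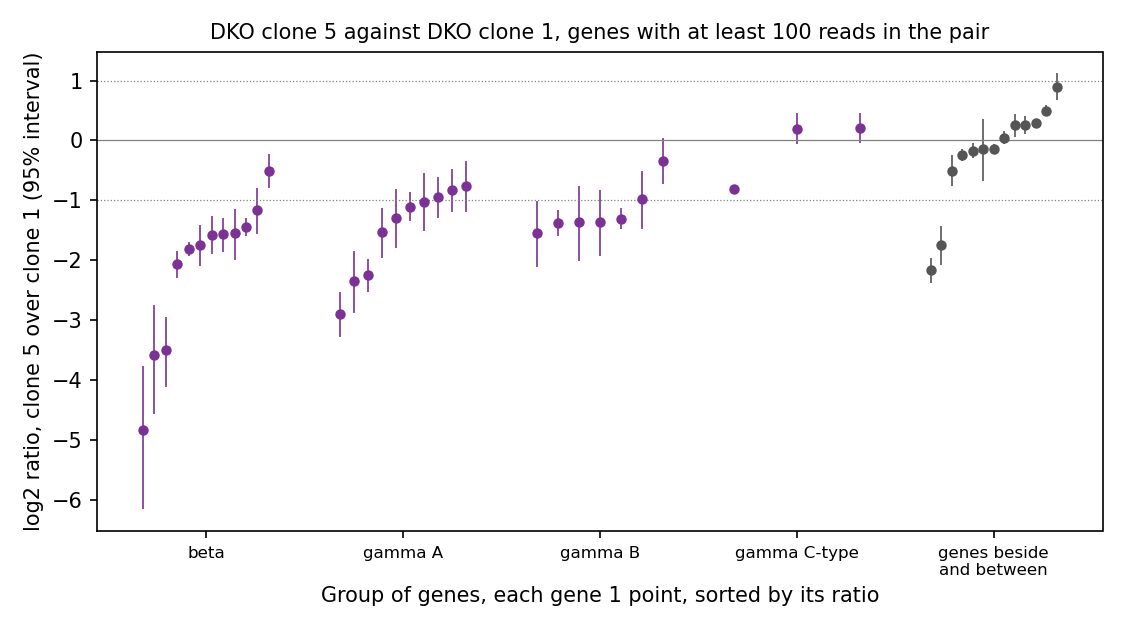
Log2 ratio of DKO clone 5 to DKO clone 1, 1 point per gene with at least 100 reads in the pair, sorted within 4 groups of protocadherins and for the genes beside and between the clusters, with 95% intervals of the counting. All beta, gamma A and gamma B points lie under 0, while Pcdhgc4 and Pcdhgc5 lie just above it.

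With both clones as replicates of DKO, no member passed the test. edgeR's quasi-likelihood test could be run for 40 of the 58 genes (0 alpha, 19 beta, 21 gamma), the other 18 having too few reads. In DKO against WT 0 members had an adjusted p under 0.05, against 0.468% of all genes tested, and 2 had an unadjusted p under 0.05, against 5.08%. Those 2 were Pcdhga8 (log2 ratio 2.07, SE 0.80, adjusted p = 0.862 by edgeR) and Pcdhga3 (log2 ratio 2.02, SE 0.82, adjusted p = 0.904 by edgeR). The DKO level was 4.90 ± 1.95 CPM for Pcdhga8 and 5.21 ± 2.34 CPM for Pcdhga3 (SD, n = 2), against 1.17 and 1.29 CPM in WT. The median log2 ratio was 0.17 over the 40 members and 0.03 over all genes. It rested on which clone was used: against WT and PRDX1MT joined, it was 0.68 with clone 1 alone and -0.50 with clone 5 alone. It was -0.23 over the beta genes, 14 of 19 of them below 0, and 0.84 over the gamma genes, 18 of 21 above 0. Of all genes tested 10176 were above 0 and 9270 below.

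Against PRDX1MT, which shares the DKO libraries with the comparison above, 0 members passed either, beside 0.206% of all genes, and 5 had an unadjusted p under 0.05, beside 4.69%. Pcdhga3 came nearest, with a log2 ratio of 4.41 (SE 0.99, adjusted p = 0.269 by edgeR) that rests on 6 reads in PRDX1MT. DESeq2 called this gene (adjusted p = 0.00544), and so did edgeR without a filter on low counts (adjusted p = 0.00210), which also called Pcdhga1 (adjusted p = 0.0176). These settings called 215 and 404 of all genes, against 40 in the filtered edgeR fit. The median log2 ratio was 0.14 over members and 0.04 over all genes, -0.37 over beta genes and 1.47 over gamma genes. For Pcdhb16 the DKO level was 61.7 ± 48.4 CPM (SD, n = 2) around a WT level of 60.9, a log2 ratio of 0.02 (SE 0.70). The clones lay on opposite sides of WT, so a mean near the WT level stood for 1 clone above it and 1 below.

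Genes around the clusters were compared in the same way. None of the 16 tested neighbours of 18 listed passed the DKO test against WT or PRDX1MT, beside 0.468% and 0.206% of all genes. Between the clones 2 of the 13 neighbours with enough reads were lower in clone 5 and none was higher, a count near the 10.7% lower over all genes. One was Taf7, a subunit of the transcription factor TFIID whose gene lies between the beta and gamma clusters, with 510, 529, 1265 and 218 reads in WT, PRDX1MT, clone 1 and clone 5. The other was Cd14, a lipopolysaccharide co-receptor gene before the alpha cluster, at 6.37, 4.78, 12.3 and 3.67 CPM. Both were named after their values were seen, and in both clone 1 was the highest library and clone 5 the lowest. Against WT, Taf7 was 2.86-fold higher in clone 1 (2.58 to 3.18), and Pcdh1, an unclustered protocadherin past the gamma cluster also named after its values were seen, was lower in both clones by the size rule (4.06, 7.92, 0.308 and 0.545 CPM). Pcdh1 did not pass the test in DKO against WT (log2 ratio -3.25, SE 0.71, adjusted p = 0.182 by edgeR). Diaph1 and Hdac3, just past the gamma cluster, had clone 5 to clone 1 log2 ratios of 0.28 and -0.14.

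Genes that set protocadherin expression were listed as well. Of the 25 tested 0 passed in either DKO comparison, beside 0.468% (against WT) and 0.206% (against PRDX1MT) of all genes. Ctcf, which loops promoters to the enhancers, had 75.5, 53.7, 57.8 and 76.3 CPM in WT, PRDX1MT, clone 1 and clone 5. Smchd1, a repressor of these clusters, had 97.8, 85.6, 87.7 and 135 CPM, and Setdb1, a histone methyltransferase that shields them, had 53.2, 41.4, 41.8 and 48.4 CPM. None of these 3 differed by the size rule between WT and either clone. Over all genes with enough reads 7.56% were lower in clone 1 than in WT, and 5.69% were higher and 8.58% lower in clone 5. Near those shares, 1 of the 25 listed genes with enough reads was lower in clone 1, while 1 was higher and 3 were lower in clone 5. The higher one was Uhrf1, which guides Dnmt1 to newly copied DNA, at 98.7, 144, 90.5 and 368 CPM. Tet1, which oxidises methylated cytosine, was the gene lower in both clones, at 28.7, 15.5, 10.2 and 6.32 CPM. Tet2 and Lrif1 were the others lower in clone 5. Lrif1 was at 19.1, 9.37, 15.9 and 9.15 CPM and was lower by the size rule in PRDX1MT too. Dnmt1, which copies methylation at replication, had 148, 203, 112 and 275 CPM, a log2 ratio of 1.30 between clone 5 and clone 1. Uhrf1, Tet1, Tet2 and Lrif1 were named after their values were seen, and the part of these genes in the difference between the clones was not tested. The other protocadherins, whose genes lie outside the clusters, numbered 12, and 0 of the 7 tested passed in either DKO comparison. Few had enough reads for the size rule, so their shares are rough. By this rule 3 of 5 were lower in clone 1 than in WT, against 7.56% of all genes. Between the clones 2 of 4 were higher in clone 5, against 7.63% of all genes, where no clustered gene was. Those 2, named after their values were seen, were Pcdh9 (12.7, 18.5, 8.27 and 24.1 CPM) and Pcdh19 (209, 176, 50.2 and 137 CPM).

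Because protocadherins are best known from the nervous system, markers of other cells were read beside them. Of 10 neuronal markers, Nefl had 0 reads in every library, and Snap25, Dcx and Rbfox3 had at most 3. The list summed to 108, 211, 82.9 and 239 CPM in WT, PRDX1MT, clone 1 and clone 5, most of it from Map2 and, in clone 5, Stmn2 (66.6 CPM). Of 9 neural progenitor and glial markers Olig2 and Fabp7 had 0 reads in every library. That list summed to 35.3, 33.0, 83.4 and 47.9 CPM and was highest in clone 1, through S100b (20.8, 7.24, 58.4 and 10.9 CPM) and Gfap (0.583, 0.402, 5.69 and 0.472 CPM). S100b and Gfap were thus highest in the clone with the most gamma A and B RNA, while the neuronal list was lowest there. The part of either list in that result was not tested. Epithelial, endothelial and immune markers summed to at most 2.09, 16.8 and 6.43 CPM in a library.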

How the data were processed

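The values are whole-number read counts per gene deposited by the authors, 1 column per library and not normalized. Per the labels' protocols, total RNA was depleted of ribosomal RNA and made into stranded libraries. The submitters' processing notes name the aligner STAR 2.6.1d and the build mm10. Not given in the sources used here are the counting program, its annotation and its use of strand. Symbols and exons came from GENCODE M21 (GRCm38/mm10), which held 54495 of the 54532 identifiers. The symbol Pcdha11 belongs to 2 identifiers, and both were kept.

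The members and the 12 gene lists were chosen with earlier results of these data known. R 4.3.3 with edgeR 4.0.16 fitted all 3 groups together (TMM scaling, filterByExpr by group, quasi-likelihood test, Benjamini-Hochberg adjustment over 19446 genes, adjusted p under 0.05). Only the 2 DKO clones gave residual freedom (1 degree, with 6.54 prior degrees; common dispersion 0.187), so WT and PRDX1MT are assumed to vary like the clones. DESeq2 1.42.0 was an alternative. Pairs of single libraries had no test, only the size rule (prior count 2), with conditional exact binomial intervals. The tests were checked on simulated data. Intervals and floors cover counting error only. PCR copies could not be removed by molecular identifiers, so every read was treated as independent.

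Genes named were the C-type members, the 3 with most WT reads per cluster, up to 3 per cluster and direction in each single-library comparison, and from the lists Ctcf, Smchd1, Setdb1, the Dnmt genes and any gene called. Others were chosen after their values were seen: Pcdha5, Pcdhb1, Pcdhb15, Pcdhb22, Pcdhga10, Pcdhga11, Pcdhgb2, Pcdh1 and other unclustered protocadherins, Uhrf1, Tet1, Tet2, Lrif1, the neighbours and the cell type markers. Sequences of the members' M21 transcripts served only to count shared 50-base words, and none is printed.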

Additional observations from a re-analysis of the deposited data

How the results depend on the processing

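Of the 8 alternatives run, those that kept both clones called no member in DKO against WT. With 1 CPM in 2 libraries no gene at all was called, so no member could be. The others called 76 to 535 of all genes, against 91 in the main fit. So few genes were called that 0 members says little about them. Leaving out a clone changed the baseline, since the remaining clone was set against WT and PRDX1MT joined. Both comparisons then have the same fits. Their median log2 ratio was -0.50 without DKO replicate 1 and 0.68 without DKO replicate 5. In DKO against PRDX1MT 2 members were called with no filter on low counts and 1 with DESeq2, where 404 and 215 of all genes were called, against 40 in the filtered fit. In PRDX1MT against WT, 2 members were lower with at least 20 reads, 2 with total counts only and 0 at a log2 ratio of at least 1.5. Against WT, clone 5 had 15 lower members with at least 20 reads, and at a log2 ratio of at least 1.5 it had 5 lower and 1 higher. Between the clones 14 members were lower at that ratio. Shares over all genes were not worked out for these other settings of the size rule. These counts therefore do not say whether the members stand out from other genes. With total counts only the summed beta level was 194 CPM in WT and 172 CPM in PRDX1MT, and the summed gamma level was 272 and 245 CPM; the change follows from leaving out the TMM factors. The level of Pcdhgc3 per kilobase in WT was 31.0 CPM over all exon bases and 50.4 CPM over bases free on the same strand, which divide the same reads by more bases. For the other counts the cause of a change was not tested. No paired analysis was possible because the labels number the DKO clones alone, and give WT and PRDX1MT no replicate number. Depth limits the alpha genes and Pcdhb1 to Pcdhb4 and Pcdhb6, which had at most 23 reads in a library.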
